A study of Mus musculus with 4 samples.

Results

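The connecting tubule (CNT) nuclei of mouse kidney cortex were described here from cluster 9 of the 23 clusters that the authors made. The cluster carries a number in the deposited table, and the name CNT follows from the order of cluster names in the study. It was held as 4 of 92 columns, 1 for each of 4 mice, each column being the mean normalized expression of 19609 genes over the nuclei of 1 cluster in 1 mouse. The comparison clusters were DCT (distal convoluted tubule, cluster 5), CD_PC (collecting duct principal cells, cluster 13) and DCT_CNT (cluster 16), also of 4 columns each.

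All 4 mice were males of mixed strain on a doxycycline diet, with 1 mouse per condition. Control carried TRE-hKLF6 alone, a doxycycline-responsive human KLF6 transgene without its activator. OE carried CAG-rtTA and TRE-hKLF6, in which the broadly active CAG promoter drives the activator, so the overexpression is global and not restricted to the tubule. Control_AAI and OE_AAI had the same genotypes and received a single injection of aristolochic acid I (AAI), a plant toxin that forms DNA adducts and injures mainly the proximal tubule, the day before collection. The comparisons answer how CNT nuclei differ from their neighbours along the nephron, how they differ after AAI, and how they differ with human KLF6. With 1 mouse per condition there is no spread between mice of a condition, so no test between conditions was made and every value describes these 4 mice.

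The CNT joins the distal convoluted tubule to the collecting duct. Its cells take up calcium through an apical channel, carry it through the cytosol on calbindins and extrude it by a sodium/calcium exchanger and a calcium pump, under the control of parathyroid hormone and vitamin D. They also reabsorb sodium through the epithelial sodium channel under aldosterone, which couples to potassium secretion, and they share the machinery of thiazide-sensitive salt transport with the DCT and that of water transport with principal cells.

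Values are on the scale of counts per 10000 per nucleus, and 4 values in a row are those of the Control, Control_AAI, OE and OE_AAI mouse in that order. Reads in introns were counted, so levels depend on gene length and are compared for 1 gene at a time. The table holds means only, without the nuclei and counts behind each column, and values are therefore given without counting intervals. In CNT, 29.8% to 33.9% of genes were listed at exactly 0, against 25.4% to 28.1% in DCT and 36.5% to 41.1% in CD_PC, and 15.1% to 63.4% over the 88 columns of the other clusters. Proximal tubule transcripts were present in all of these clusters. The summed level of 10 proximal tubule markers was 106, 69.7, 127 and 53.9 in CNT, close to 93.2, 65.2, 119 and 49.8 in DCT and 116, 79.3, 136 and 62.8 in CD_PC, and was lower in both AAI-treated mice. The androgen-regulated Kap made up most of it, at 78.3, 51.8, 96.0 and 37.7 in CNT.

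The label was set beside its markers, which is no test, since the authors made and named the clusters from these same values. Slc8a1, the sodium/calcium exchanger NCX1 of the basolateral membrane, was 366, 292, 223 and 412 in CNT. It was 206, 191, 157 and 189 in DCT and 14.8, 19.2, 10.1 and 21.2 in CD_PC, so that CNT was the highest in each mouse and CD_PC the lowest. Calb1, the cytosolic calcium carrier calbindin-D28k, was 17.6, 8.65, 14.9 and 13.6 in CNT. The DCT values of Calb1 were 17.8, 10.2, 11.53 and 12.99, which overlapped those of CNT, and the CD_PC values were 2.32, 4.12, 1.80 and 3.47, all below both. Calb1 therefore set CNT apart from CD_PC and not from DCT.

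The other CNT markers separated it from both neighbours in part. Trpv5, the apical calcium channel, was 1.29, 1.67, 1.72 and 1.38 in CNT, against 0.200, 0.280, 0.232 and 0.184 in DCT, and in CD_PC it did not exceed 0.119. Klk1, tissue kallikrein, was 6.70, 9.10, 11.96 and 7.34 in CNT, against 2.31, 3.09, 5.02 and 3.22 in DCT. S100g, calbindin-D9k, was 2.88, 3.04, 6.58 and 3.79 in CNT and 1.25, 0.991, 3.35 and 1.44 in DCT. Each of these 3 genes was higher in CNT than in DCT and in CD_PC within every mouse, although the highest DCT value of S100g, in the OE mouse, exceeded the CNT values of the Control and Control_AAI mice. The sodium channel subunit Scnn1g was 6.63, 3.83, 5.89 and 5.17 in CNT, 0.271, 0.167, 0.430 and 0.291 in DCT, and 4.84, 4.31, 3.85 and 3.96 in CD_PC. Scnn1b was 8.65, 6.34, 9.37 and 7.74 in CNT and 9.64, 8.68, 7.52 and 8.82 in CD_PC, with 1.35 as its highest DCT value. Both subunits thus stood apart from DCT and overlapped between CNT and CD_PC.

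Markers of principal, intercalated, endothelial, podocyte and macrophage cells had low sums in CNT. Those of the proximal tubule, given above, the thick ascending limb and the DCT had higher sums. Of the 7 principal cell markers, the summed level was 4.05 to 5.13 in CNT and 12.6 to 25.2 in CD_PC, and the transcription factor Elf5 was listed at 0 in 3 of the 4 CNT columns and at 0.0177 in the Control_AAI mouse. Aqp2, the vasopressin-regulated water channel, was 1.46, 1.59, 1.39 and 1.10 in CNT, between 0.290, 0.1704, 0.350 and 0.0750 in DCT and 6.36, 5.47, 12.1 and 3.59 in CD_PC. The 10 intercalated cell markers summed to 0.839 to 1.14 in CNT, with Foxi1, Insrr, Kit and Hmx2 at 0 in at least 1 mouse. The 6 endothelial markers summed to 0.589 to 0.919, the 5 podocyte markers to 0.229 to 0.615 and the 6 macrophage markers to 0.192 to 0.657, and none of these 27 markers reached the minimum for a comparison between conditions. The 5 thick ascending limb markers summed to 7.02 to 10.5 in CNT and 11.99 to 15.8 in DCT, mainly from Umod, with Cldn16 and Cldn19 at 0 in at least 1 CNT column. The 6 DCT markers summed to 21.7 to 27.2 in CNT, 180 to 210 in DCT and 4.66 to 5.52 in CD_PC.

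**Figure D1:**
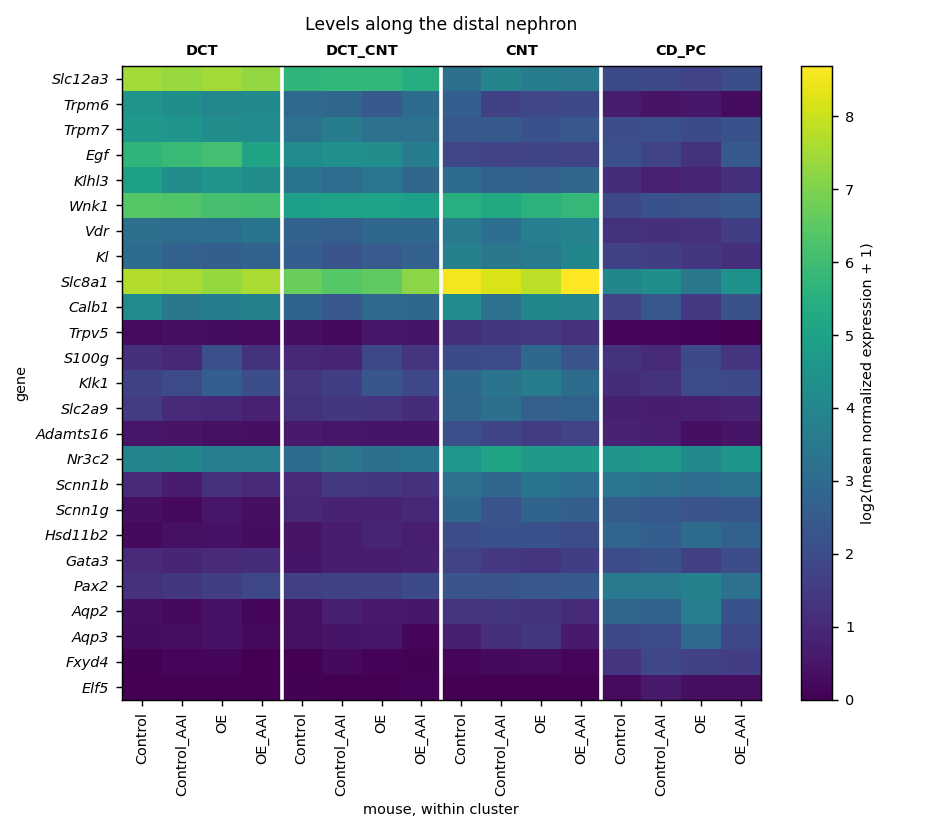
Levels of 25 genes of the distal nephron as log2(mean normalized expression + 1), by colour, in the 4 mice (columns) of the DCT, DCT_CNT, CNT and CD_PC clusters. Slc12a3, Trpm6, Trpm7 and Egf are brightest in DCT, Slc8a1 in CNT, and Aqp2, Aqp3 and Fxyd4 in CD_PC, while Scnn1b, Scnn1g and Nr3c2 are at similar levels in CNT and CD_PC.

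Over the whole profile, CNT lay closest to DCT and CD_PC. Pearson's r across 4272 genes with a mean of at least 0.5 over the 92 columns, on the log2 scale, was 0.884, 0.897, 0.897 and 0.911 with DCT and 0.887, 0.859, 0.870 and 0.873 with CD_PC. DCT ranked first of the 22 other clusters in 3 mice and CD_PC in the Control mouse, where the values differed by 0.003. The third-ranked cluster was IC-A or DCT_CNT, at 0.792 to 0.837. Genes are not independent replicates, and all clusters of a mouse share 1 library and its free RNA, so these correlations are descriptions.

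Only a small set of genes had its highest level in CNT. Of 2956 genes with a CNT value of at least 0.5 in all mice, 20 (0.677%) were highest of the 23 clusters in CNT in 4 of 4 mice, while the number in a single mouse was 118 to 139. The next highest cluster was CD_PC in 29 and DCT in 19 of the 80 gene-by-mouse values. The gene with the widest gap was Slc2a9, the urate and glucose transporter GLUT9, at 6.25, 8.15, 5.35 and 5.51 in CNT, with a smallest log2 gap to the next cluster of 1.35. Adamts16, a secreted metalloprotease, had 3.32, 2.55, 1.89 and 2.45 and a smallest gap of 0.95. Trpv5 followed with a smallest gap of 0.77.

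Hormone receptors and signalling cofactors were also in this set. Kl, which encodes klotho, the coreceptor of FGF23, was 12.8, 9.77, 10.6 and 14.9 in CNT and 5.18 to 7.32 in DCT, with a smallest gap of 0.71. Nr3c2, the mineralocorticoid receptor, was 24.0, 32.97, 24.3 and 24.2 in CNT and 22.1, 24.7, 16.3 and 22.8 in CD_PC, and its smallest gap was 0.08. Vdr, the vitamin D receptor, was 11.13, 7.93, 12.2 and 13.4 in CNT and 8.22, 7.65, 7.86 and 9.39 in DCT, with a smallest gap of 0.05. The ranges of Kl did not overlap between CNT and DCT, whereas those of Nr3c2 and Vdr did overlap with the next cluster. Among the other genes by gap were the noncoding RNAs AI838599 and Gm26561, the regulator of small GTPases Abr, Tmem178, the clathrin adaptor Clint1, the ubiquitin ligase Peli2, Cfap54 and the mitochondrial aspartate/glutamate carrier Slc25a12. AI838599 was 7.77, 7.98, 4.75 and 8.70 in CNT, with a smallest gap of 0.56.

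**Figure D2:**
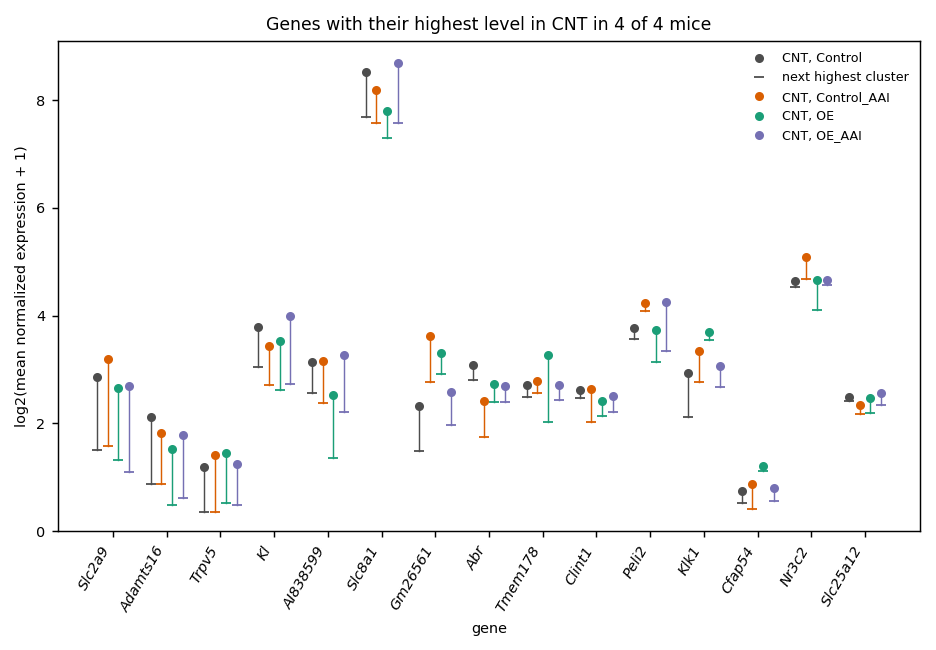
The 15 genes with the widest gap among the 20 that were highest in CNT in 4 of 4 mice. Points give the CNT level of each mouse and short bars the level of the next highest cluster in the same mouse, as log2(mean normalized expression + 1). Slc2a9 has the widest gap when the smallest of its 4 gaps is taken, and Nr3c2 lies close to the next cluster in the Control and OE_AAI mice.

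The promoters of Slc8a1, Trpv5 and Kl are given because these genes of calcium handling had their highest level in CNT. The sequences are those of RefSeq on GRCm38.p6, 250 bases up to the annotated start, 5′ to 3′ on the gene's strand. A promoter was held for 12 of the 20 genes and for 44 of the 58 genes that were higher in CNT than the mean of the other clusters. The capitals mark the letters AGATAA, searched on both strands as the core that GATA factors recognise. Gata3, a GATA factor of the distal nephron, was 2.48, 1.72, 1.54 and 2.08 in CNT and 0.920 to 1.16 in DCT. It is also on the list of 7 principal cell markers, none of which passed as higher in CNT than in CD_PC. A link of Gata3 to these promoters was not tested. Slc8a1 lies at chr17:81373105-81738377 on the minus strand in the GENCODE annotation of GRCm38, and the window shown is chr17:81738388-81738637. Trpv5 is on the minus strand of chromosome 6, with the window chr6:41680724-41680973, and Kl on the plus strand of chromosome 5, with chr5:150952357-150952606.
Slc8a1: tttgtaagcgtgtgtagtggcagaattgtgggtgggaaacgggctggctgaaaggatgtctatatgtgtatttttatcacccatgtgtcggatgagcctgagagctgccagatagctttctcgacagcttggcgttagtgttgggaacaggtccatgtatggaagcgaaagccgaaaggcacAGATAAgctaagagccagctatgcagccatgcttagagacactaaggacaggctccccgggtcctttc
Trpv5: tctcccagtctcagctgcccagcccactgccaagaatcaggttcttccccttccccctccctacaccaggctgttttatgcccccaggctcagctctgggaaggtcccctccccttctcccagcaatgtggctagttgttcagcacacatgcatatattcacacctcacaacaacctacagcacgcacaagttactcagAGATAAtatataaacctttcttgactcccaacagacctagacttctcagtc
Kl: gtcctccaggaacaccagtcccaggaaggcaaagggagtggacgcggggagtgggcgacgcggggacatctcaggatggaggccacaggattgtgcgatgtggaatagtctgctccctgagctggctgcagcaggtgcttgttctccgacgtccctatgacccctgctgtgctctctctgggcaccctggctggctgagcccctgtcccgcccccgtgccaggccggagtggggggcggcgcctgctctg
AGATAA was found in the windows of Slc8a1 and Trpv5 and not in that of Kl. Among the 12 promoters of genes highest in CNT it was in 2 (16.7%), which are these windows of Slc8a1 and Trpv5. It was in 6.82% of the 44, and in 6.97% of the 13781 promoters of genes in the expression table. Over all 27025 genes with a promoter sequence the share was 10.3%. Other patterns were also searched. GCCNNNGGC, for TFAP2 factors, was in 0 of the 12 and 18.2% of the 13781. CCNCNCCC, for KLF factors, was in 75.0% and 59.0%. A match is a description of the letters in this window and not a binding site.

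Against the mean of the other 22 clusters, 58 of 3976 genes (1.46%) were higher in CNT by a log2 difference of at least 1 in 4 of 4 mice, and 104 (2.62%) were lower. Against the median of the other clusters the balance turned, with 126 higher and 16 lower. The clusters were made from these same values, so such counts describe the cluster and test nothing. Slc8a1 led with a smallest log2 difference of 3.84, followed by Phactr1, a regulator of actin and protein phosphatase 1, at 98.8, 79.9, 70.9 and 79.2 in CNT and 3.01. Slc2a9, AI838599, Scnn1b, Egfem1, Calb1, Sdk1, Tbck, Peli2, Scnn1g, Frmpd4, Crybg1, Nr3c2 and Gm26561 came next, with smallest differences of 2.19 to 1.74. Of these 15 genes, 10 had their highest mean of the 23 clusters in CNT and 5 in CD_PC. The genes furthest below the mean were Slc12a1, the sodium-potassium-chloride cotransporter of the thick ascending limb, Lsamp, Slc26a4, Egf, Plcb1, Prkg1, Meis2, Pitpnc1, Nfia, Robo2, Dab2, Auts2, Pde4b, Tshz2 and Pam. Slc12a1 was 2.47, 1.95, 2.51 and 2.52 in CNT, and the mean of the other clusters was 24.6 to 27.4.

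CNT was higher than DCT in 41 of 3441 genes (1.19%) and lower in 17 (0.494%). Of 14 compared genes of sodium transport and aldosterone, 3 were higher, Scnn1b, Scnn1g and Hsd11b2, and none was lower, while none of 13 compared calcium genes passed either way. Of the calcium genes, Slc8a1, Trpv5, Klk1, Kl and Vdr were above DCT in every mouse, but not by a log2 difference of 1 in all 4. At low levels, as for Trpv5, the 1 added before the logarithm makes the difference smaller. Hsd11b2, the enzyme that keeps cortisol and corticosterone from the mineralocorticoid receptor, was 3.18, 3.60, 3.56 and 2.95 in CNT and 0.155, 0.301, 0.342 and 0.210 in DCT. It was higher again in CD_PC, at 5.09 to 7.35. Scnn1a, the alpha subunit, was 2.20, 2.07, 1.72 and 2.19 in CNT and 1.99, 1.69, 1.82 and 1.71 in DCT, ranges that overlapped. Ranked by the smallest of the 4 differences, the first genes were Frmpd4, a scaffold protein, with 8.996 to 11.37 in CNT against 0.0655 to 0.317 in DCT, and Egfem1, with 15.5, 22.5, 4.20 and 9.69 against 0.00912 to 0.353. Crybg1, Sdk1, Cacnb2, a beta subunit of voltage-gated calcium channels, Bmpr1b, a receptor of bone morphogenetic proteins, Tbck, Kif26b, AI838599, Tmem45b, St6gal1 and Arl15 made up the rest of the first 15. Kif26b was listed at 0 in DCT of the OE mouse.

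Of the 17 genes lower in CNT than in DCT, 2 were of the 8 compared genes of the WNK pathway (Slc12a3 and Klhl3) and 3 of the 7 magnesium genes (Trpm6, Trpm7 and Egf). Slc12a3, the sodium-chloride cotransporter NCC, was 8.33, 14.4, 11.8 and 11.37 in CNT and 177, 162, 178 and 154 in DCT. Prkd1, protein kinase D1, ranked first by the smallest of its 4 differences, with 0.464, 0.972, 0.499 and 0.717 in CNT against 18.6, 32.1, 20.3 and 25.0. Trpm6, the epithelial magnesium channel, was 5.10, 2.18, 2.57 and 2.73 in CNT and 21.6, 19.1, 15.4 and 16.99 in DCT, and its relative Trpm7 was 3.53 to 4.55 against 17.3 to 24.2. None of the ranges of these 4 genes overlapped. Egf, whose product stimulates magnesium uptake, was 2.35 to 2.63 in CNT and 32.4 to 67.2 in DCT. The nuclear receptor Esrrb was 0.505, 0.388, 0.584 and 0.353 in CNT and 4.92 to 7.48 in DCT. Abca13, Stk32b, Sfrp1, Gcnt2, Hmgcll1, Cwh43, Arnt2, Ank2 and Klhl3, the substrate adaptor that brings WNK kinases to degradation, were the others of the first 15. Klhl3 was 7.19, 5.42, 5.39 and 6.23 in CNT, 18.3 to 29.6 in DCT and 0.728 to 1.28 in CD_PC.

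CNT was higher than CD_PC in 27 of 3565 genes (0.757%) and lower in 28 (0.785%). Of 14 compared calcium genes, 6 were higher, Slc8a1, Trpv5, Atp2b4, Vdr, Klk1 and Kl, and of 7 compared genes of the WNK pathway 3, Slc12a3, Wnk1 and Klhl3, with none lower in either list. The kinase Wnk1 was 43.9, 37.5, 47.1 and 54.2 in CNT and 2.65, 3.56, 3.71 and 4.54 in CD_PC, with 65.4 to 82.7 in DCT. Wnk4, which was not among the 27, was 2.94, 2.47, 2.81 and 3.43 in CNT and 0.660 to 0.873 in CD_PC, also between CD_PC and DCT, where it was 4.61 to 5.07. Vdr was 1.25 to 2.03 in CD_PC and Kl was 1.25 to 2.27, both below every CNT value. The calcium pump Atp2b4 was 2.17, 1.20, 2.07 and 1.78 in CNT and at most 0.115 in CD_PC, whereas Atp2b1 was 1.51, 1.76, 1.64 and 1.93 in CNT and 0.901 to 1.97 in CD_PC. Sgms2, a sphingomyelin synthase, Slc2a9, Cyp2j11, Tmem52b, Klhl3, Kng2, the transcriptional cofactor Dach1, Abca13, Slc12a3, Shank2 and Tmem72 completed the first 15.

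The lower side against CD_PC held Mgat4c, a glycosyltransferase, at 0.420, 0.424, 0.0350 and 0.0521 in CNT and 12.9, 26.3, 10.3 and 24.0 in CD_PC. Erbb4, a receptor of neuregulins, was 3.00, 4.63, 3.58 and 4.39 in CNT and 12.1, 21.8, 14.6 and 22.2 in CD_PC. The transcription factor Nfia was 1.54, 1.61, 1.12 and 1.42 in CNT and 5.71 to 7.95 in CD_PC. Rbms3, Dab1, Tmtc2, Rbfox1, Il1rapl1, Cyp7b1, Tcf7l1, Ralyl, Kctd8, Pde1c, Samd12 and Kcnh5 were the rest of the first 15. Pax2, a transcription factor of the collecting duct lineage, was 3.91, 3.88, 4.16 and 4.52 in CNT, between 1.37 to 2.69 in DCT and 8.55 to 13.3 in CD_PC. Il1rapl1 was listed at 0 in CNT of the OE mouse.

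The position between the neighbours was also taken over all genes. CNT was higher than both DCT and CD_PC by a log2 difference of at least 1 in 2 of 3214 genes tested in both comparisons, Slc2a9 and Adamts16, and lower than both in none. It lay below DCT and above CD_PC by this margin in 5 genes, Sgms2, Slc12a3, Abca13, Klhl3 and Trpm6, and above DCT and below CD_PC in 3, Cacnb2, Veph1 and Pde8b. DCT was higher than CD_PC by at least 1 in 65 of 3615 genes (1.80%) and lower in 98 (2.71%). Of the 65, the CNT level was between those of DCT and CD_PC in every mouse in 50, and of the 98 in 75. A gene chosen for its difference leaves room between the 2 levels for any cluster, and the same count in the 20 other clusters was 6 to 58 of the 65, highest in DCT_CNT, and 12 to 67 of the 98. On the log2 scale CNT stood, at the median over genes, 51.0% of the way from CD_PC to DCT in the 65 genes and 48.7% in the 98. Veph1 and Pde8b were chosen after their values were seen.

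DCT_CNT, whose name holds both segments, differed from CNT in a different way. CNT was higher in 39 of 3668 genes (1.06%) and lower in 108 (2.94%). The first genes on the lower side were Dab2, Ghr, the growth hormone receptor, Hnf4aos, Pitpnc1, Prkd1, Nfia, Nhs, Plcb1, Errfi1, Keg1, Auts2, Fut9, Gramd1b, Egf and Frmd4b. Of these 15, 11 had their highest mean in a proximal tubule cluster. Ghr was 8.42, 10.6, 8.21 and 9.94 in CNT and 48.3, 74.8, 43.9 and 50.5 in DCT_CNT. The 10 proximal tubule markers summed to 96.4 to 140 in DCT_CNT, and their part in these differences was not tested. On the higher side were Frmpd4, Egfem1, Phactr1, Cacnb2, Sdk1, AI838599, Kif26b, Scnn1g, Scnn1b, Crybg1, Slc2a9, Slit2, Cadm2, Bmpr1b and Tbck, which are mainly genes that also set CNT apart from DCT.

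After AAI, 365 of 3869 genes (9.43%) were higher in CNT by a log2 difference of at least 0.2 in both genotypes and 232 (6.0%) were lower, while 160 (4.14%) passed 0.2 in opposite directions. The 2 comparisons, Control_AAI with Control and OE_AAI with OE, share no mouse. The balance depended on the scale: the median over all genes was 0.031 and 0.064, and with each comparison centred on it 226 genes were higher and 318 lower, or 41.5% higher in place of 61.1%. Ranked by the smaller of the 2 differences, Greb1, an estrogen-induced gene, came first, at 1.96 in Control, 6.47 in Control_AAI, 1.44 in OE and 4.71 in OE_AAI. Its log2 differences were 1.34 and 1.23, against 1.16 and 0.74 in DCT and 1.05 and 0.53 in CD_PC, and the median over the other 22 clusters was 0.06 and 0.11. The highest mean of Greb1 of all clusters was in CNT.

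Some of the next genes by rank were also higher in every other cluster. Chd9, a chromatin remodeller, was 2.03 and 6.90 in the control genotype and 2.52 and 4.83 in OE. It was higher in 22 of 22 other clusters in both genotypes, as were the immediate early transcription factor Egr1, the p53 target Trp53inp1 and the noncoding 2610035D17Rik. Egr1 was 0.0803 and 0.878 in the control genotype and 0.110 and 0.908 in OE. Stk32a, a kinase, was 0.721 and 2.22 in the control genotype and 0.419 and 1.54 in OE, with medians over the other clusters of 0.13 and 0.15. Trabd2b, a protease that acts on Wnt proteins, was 7.09 and 13.6, and 3.00 and 7.17. Zfp981 was listed at 0 in the Control mouse and was 3.55 in Control_AAI, 0.0468 in OE and 1.25 in OE_AAI. Phldb2 and Gm20045 were the other 2 of the first 10, with differences of 0.63 and 0.66, and 0.61 and 0.64.

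The lower genes were led by Gpc5, a heparan sulfate proteoglycan, at 4.15 in Control, 0.525 in Control_AAI, 2.36 in OE and 0.410 in OE_AAI. Its log2 differences were -1.75 and -1.25, against 0.06 and -0.06 in DCT, 0.46 and -0.50 in CD_PC and a median of -0.06 and -0.31 over the other clusters. Rbfox1, a splicing regulator, was 4.601, 1.93, 3.06 and 0.182, with differences of -0.94 and -1.78 and medians elsewhere of -0.15 and -0.02. Both genes were lowest in the AAI-treated mouse of each genotype. For Rbfox1 the differences in DCT were -0.37 and -0.01, and those in CD_PC 0.53 and -0.79. The other 8 of the first 10 were mt-Atp6, mt-Nd4 and mt-Cytb, which the mitochondrial genome encodes, and Ttc36, Nat8f1, Acy3, Inmt and Akr1c21, whose highest mean was in a proximal tubule cluster. mt-Atp6 was 32.5, 16.3, 46.2 and 14.4 in CNT. The median over the other clusters was -0.94 and -1.76 for mt-Atp6, near its CNT differences of -0.96 and -1.62.

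The lower set as a whole had this make-up. Of the 232 genes, 148 (63.8%) had their highest mean of the 23 clusters in a proximal tubule cluster, against 33.4% of all 3869 genes and 24.9% of the 365 higher ones. The lower genes were short, with a median genomic span of 22.5 kb, and 57.6% of them spanned under 30 kb, against 57.9 kb and 26.7% over all genes with a span. The higher genes had a median of 85.0 kb, and 42.9% of them spanned over 100 kb against 29.7%. A span was known for 98.7% or more of each set. Of the 10 proximal tubule markers, 7 were lower with AAI in both genotypes, with medians of -0.47 and -0.52. The part of proximal tubule transcripts, whose summed marker level was lower after AAI in CNT, DCT and CD_PC alike, in the lower count was not tested. With genes highest in a proximal tubule cluster and mitochondrially encoded genes left out and the columns rescaled, 261 of 3154 compared genes were higher and 175 lower. Rescaling raised the remaining values and let other genes reach the minimum, so the 175 are not a remainder of the 232.

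**Figure D3:**
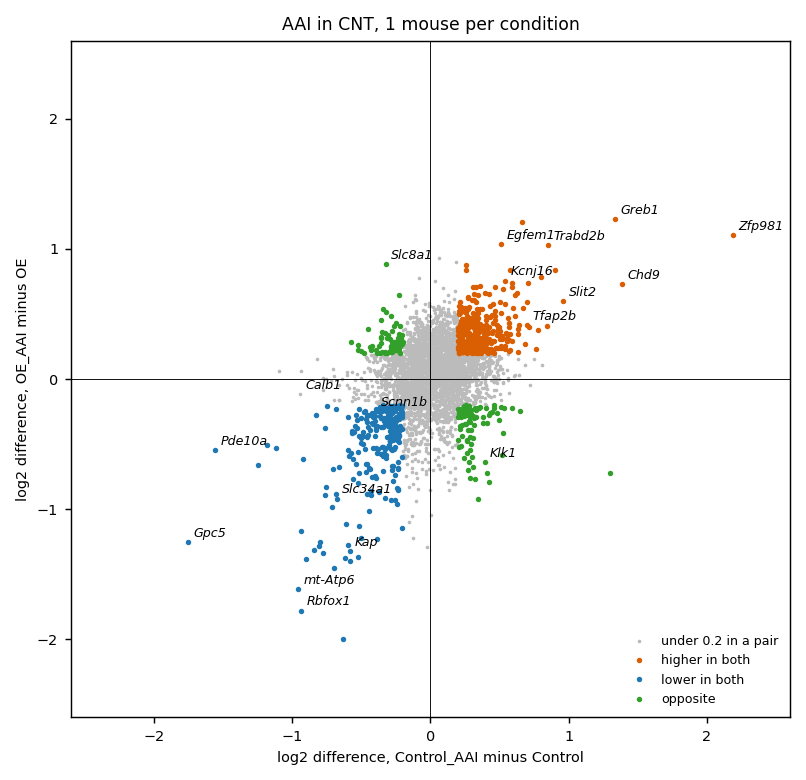
Log2 difference with AAI in CNT in the control genotype (horizontal) and in OE (vertical) for the 3869 genes compared, 1 point per gene. Orange points are higher and blue points lower by at least 0.2 in both, and green points passed 0.2 in opposite directions. Greb1, Zfp981 and Chd9 lie far up on the right, Gpc5, Rbfox1 and mt-Atp6 far down on the left, and Slc8a1 and Klk1 among the opposite ones.

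The lists are to be read beside the 9.43% of all genes that were higher and the 6.0% that were lower with AAI. Of 17 calcium genes, 14 were compared, none was higher in both genotypes, 1 was lower and 3 were opposite, with medians of -0.20 and -0.13. The gene lower in both was Pth1r, the parathyroid hormone receptor, at 1.97, 1.38, 2.59 and 1.39. Slc8a1 was opposite, with log2 differences of -0.32 in the control genotype and 0.88 in OE. Klk1 (0.39 and -0.64) and Kl (-0.36 and 0.46) were also opposite. The differences of Calb1 were -0.95 in the control genotype and -0.12 in OE, and the latter did not pass 0.2. In DCT, Calb1 was 17.8 and 10.2 in the control genotype and 11.53 and 12.99 in OE.

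Among 15 compared genes of sodium transport and aldosterone, Scnn1b alone was lower in both genotypes, with differences of -0.39 and -0.25, and none was higher, with medians of -0.06 and -0.05. Of 5 compared potassium channel genes, Kcnj16 was higher and Kcnj10 lower. Kcnj16, which encodes Kir5.1, was 5.07, 7.83, 5.23 and 9.52, with differences of 0.54 and 0.76 against 0.37 and 0.73 in DCT. Kcnj10, which encodes its partner Kir4.1, was 1.45, 1.05, 1.45 and 1.09. The 2 subunits of the basolateral potassium channel thus differed in opposite directions in both genotypes. Of 7 genes of the WNK pathway, Stk39, the kinase SPAK that WNKs activate, was higher at 5.88, 7.60, 5.26 and 7.26 and none was lower. Of 7 magnesium genes, Cnnm2 was lower, at 2.87, 1.62, 3.84 and 2.66.

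Among 12 compared genes of water transport and cyclic AMP, the phosphodiesterases Pde4d and Pde1a were higher and Pde10a lower. Pde4d was 20.9, 29.7, 20.1 and 25.7. Pde10a was 3.77, 0.617, 1.67 and 0.826, and its differences of -1.56 and -0.55 stood beside -2.21 and 0.30 in DCT. Of 25 transcription factors, Tfap2b and Nfib were higher and none was lower, with medians of -0.03 and 0.05. Tfap2b, which is needed for distal tubule development, was 2.37, 4.47, 2.40 and 3.52, with differences of 0.70 and 0.41 against 0.42 and 0.22 in DCT. None of the 6 genes of acid-base transport passed in the same direction in both genotypes, and Car12 was opposite. Of 5 claudins and cadherins, Cldn10 and Cdh16 were lower. Of 15 growth factor genes, Erbb4, Fgf1 and Tgfbr1 were higher and Fgfr2 lower, the last at 7.25, 4.71, 6.56 and 5.08.

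In the stress lists, 6 of 34 p53 targets reached the minimum, and 3 of these, Mdm2, Ccng1 and Trp53inp1, were higher, with medians of 0.20 and 0.30. Trp53inp1 was 0.161, 0.895, 0.219 and 1.03. For Mdm2, the ubiquitin ligase that degrades p53, the differences of 0.26 and 0.87 stood beside a median of 0.82 and 1.02 over the other clusters. Of 3 immediate early genes, Egr1 was higher. Of 10 circadian genes, Nr1d2, Tef and Bhlhe40 were higher, with medians of 0.13 and 0.17. Of 3 injury genes, Krt7 was lower and Spp1 opposite, with medians of -0.02 and -0.31, and Havcr1 and Lcn2 were not among those that reached the minimum. Of 8 NRF2 targets, Abcc4 was higher and Me1 lower. Of 12 heat shock genes, Hspa8 and Hspe1 were lower.

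Of 11 mitochondrially encoded genes, 10 were lower and none higher, with medians of -0.59 and -0.93. Of 49 nuclear genes of oxidative phosphorylation, 12 were lower and 5 opposite, with medians of -0.06 and -0.33. Of 29 ribosomal protein genes, 3 were lower and 6 opposite, with medians of 0.05 and -0.42. For both of these nuclear lists the median of the OE pair was the lower. Of 4 compared KLF genes none passed. Mouse Klf6 was not among these 4, being under the minimum of 0.5 in the OE pair. It was 0.165, 0.539, 0.131 and 0.309, higher in the AAI-treated mouse of each genotype at these low levels. Polr2a, the largest RNA polymerase II subunit, was 1.04, 1.55, 1.07 and 1.32 with differences of 0.32 and 0.16. The table has no row for the human transgene.

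**Figure D4:**
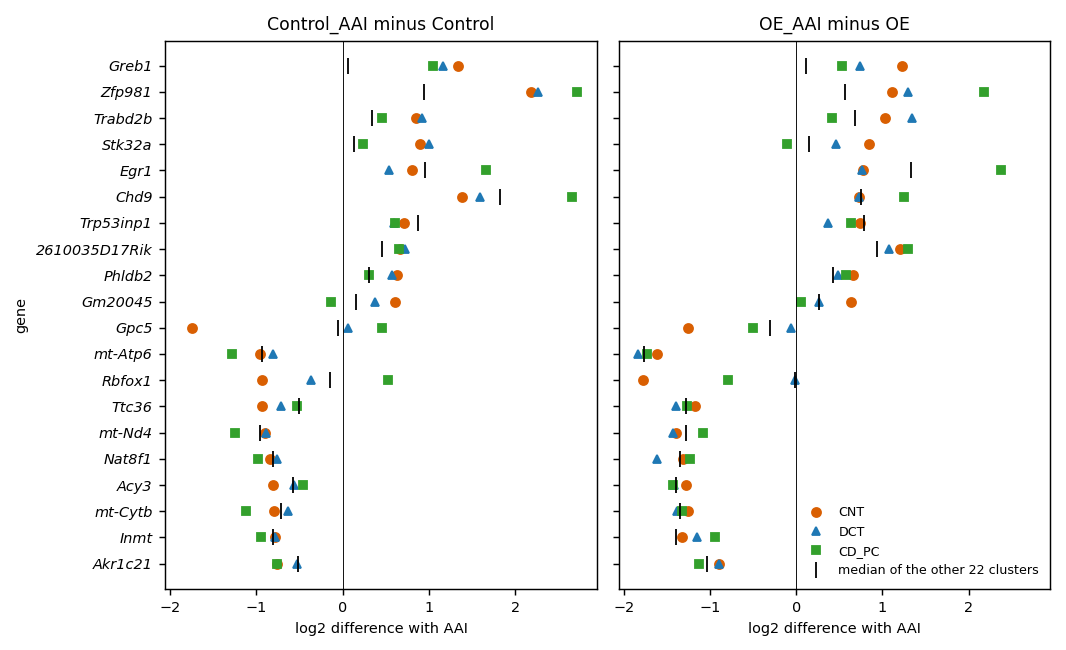
Log2 difference with AAI of the first 10 higher and first 10 lower genes of CNT, in the control genotype (left) and OE (right). Circles are CNT, triangles DCT, squares CD_PC and ticks the median of the other 22 clusters. For Gpc5 and Rbfox1 the CNT point lies far below the tick in both panels, whereas for mt-Atp6, Nat8f1 and Inmt it lies on or near it.

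Of the 58 genes that were higher in CNT than the mean of the other clusters, 12 were higher with AAI in both genotypes, 1 was lower and 8 were opposite, with medians of 0.11 and 0.13. Among the 12 were Frmpd4, Egfem1, Slit2, Peli2 and Dach1. Egfem1 went from 15.5 to 22.5 in the control genotype and from 4.20 to 9.69 in OE. The same counts over all genes are the 9.43% and 6.0% given above. The share of higher genes depends on level: at a minimum level of 2, 167 of 860 genes were higher and 62 lower. In the neighbours the counts with AAI were 341 higher and 181 lower of 3747 in DCT, and 467 higher and 349 lower of 4088 in CD_PC.

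With human KLF6, fewer genes moved the same way in both comparisons. OE against Control and OE_AAI against Control_AAI share no mouse with each other, but each shares its mice with the AAI comparisons. In CNT, 61 of 3769 genes (1.62%) were higher in both and 149 (3.95%) lower. Another 236 (6.26%) passed 0.2 in opposite directions, more than the higher and lower genes together. Taken singly, the comparison without AAI had 481 genes higher and 901 lower, and that with AAI 406 and 714. Whether the 2 comparisons shared more genes than these counts would give was not tested. The median over all genes was -0.056 and -0.037, and with each comparison centred on it 108 genes were higher and 73 lower, so that 59.7% in place of 29.0% were higher. DCT had 19 higher and 82 lower of 3593, and CD_PC 170 and 376 of 4000.

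Pck1, the rate-limiting enzyme of gluconeogenesis, was the first of the higher genes, at 1.42 and 3.85 without AAI and 0.642 and 1.84 with AAI, for control and OE. Its differences of 1.00 and 0.79 matched the medians of 0.99 and 0.79 over the other clusters, in which it was higher in 22 of 22 in both comparisons. Maf, a bZIP transcription factor, was 1.52 and 3.15, and 1.19 and 3.70, and was also higher in DCT (0.75 and 0.92) and CD_PC (1.17 and 1.56). Both Pck1 and Maf had their highest mean of the 23 clusters in a proximal tubule cluster. This held for 39.3% of the 61 higher genes and 28.9% of the 149 lower ones, against 32.6% of all 3769. The part of proximal tubule transcripts in these differences was not tested. Itpkb, a kinase that phosphorylates inositol trisphosphate, was 2.88 and 4.78, and 1.66 and 4.19, with differences of 0.58 and 0.96 against 0.23 and 0.16 in DCT and medians elsewhere of -0.01 and 0.03. Flvcr1, Fam129a, Arhgap24, Pls1, Retreg1, Gm42418 and Ell2 followed. Arhgap24, which turns off Rac, was 5.87 and 8.61, and 6.96 and 10.2, with -0.06 and 0.34 in DCT.

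Ranked by the smaller of the 2 differences, Egfem1 came first of the lower genes, at 15.5 in Control and 4.20 in OE and at 22.5 in Control_AAI and 9.69 in OE_AAI, so both OE values were below both control values. The differences of -1.67 and -1.14 stood beside -0.19 and -0.39 in DCT, where the level was low, -1.66 and -0.25 in CD_PC, and medians of -0.18 and -0.02. Trabd2b was 7.09 and 3.00, and 13.6 and 7.17, and lower in 22 and 19 of the 22 other clusters. Abca13 was 5.95 and 3.71, and 11.13 and 4.08, also lower in DCT by -0.73 and -1.22. Sgms2 was 12.6 and 8.89, and 12.7 and 8.59. Coro2a, Rbfox1, the potassium channel Kcnc2, Ap4e1, Dnah7b and A4galt, the globotriaosylceramide synthase, were the others of the first 10.

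**Figure D5:**
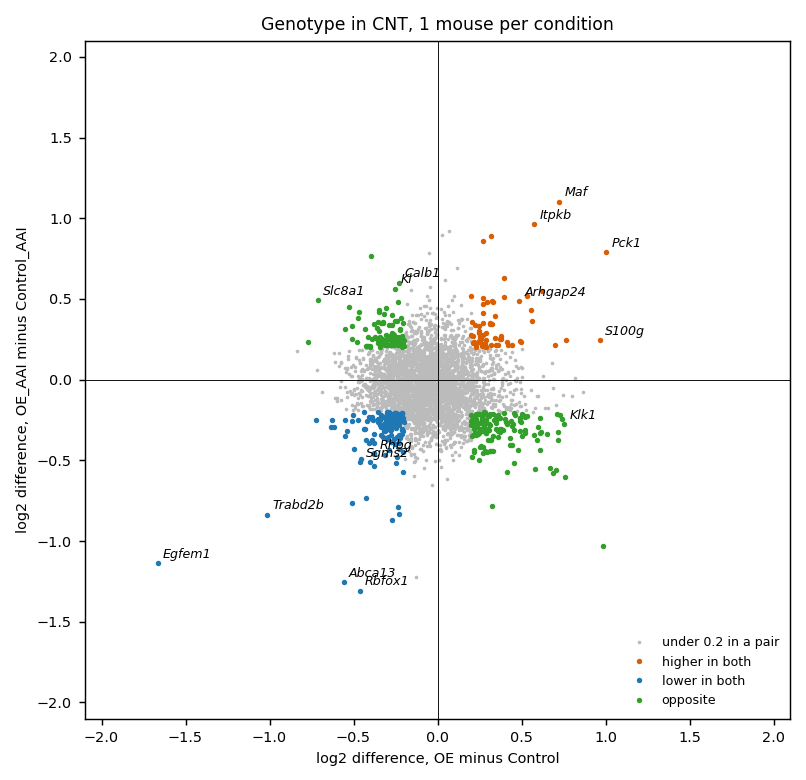
Log2 difference of OE from control in CNT without AAI (horizontal) and with AAI (vertical) for the 3769 genes compared, 1 point per gene, coloured as in the plot of AAI differences. Egfem1, Trabd2b, Abca13 and Rbfox1 lie at the lower left, Pck1, Maf and Itpkb at the upper right, and Slc8a1, Calb1, Kl and Klk1 among the genes with opposite differences.

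The lists are set beside the 1.62% of all genes that were higher and the 3.95% that were lower with genotype, shares at which a list of this size would hold few genes or none. Of 14 calcium genes, S100g was higher, at 2.88 and 6.58 without AAI and 3.04 and 3.79 with AAI, and none was lower. Its differences of 0.97 and 0.25 were near the medians of 0.88 and 0.28 over the other clusters. Slc8a1 (-0.71 and 0.49), Calb1 (-0.23 and 0.60), Klk1 (0.75 and -0.28) and Kl (-0.25 and 0.56) were opposite. Of 7 magnesium genes, Cnnm2 was higher, with 0.32 and 0.49. None of 15 sodium, 7 WNK or 5 potassium genes passed in the same direction in both, and Slc12a3 was opposite. Rhbg, a basolateral ammonium transporter, was lower at 1.63 and 1.02, and 2.03 and 1.20, the only one of 6 acid-base genes. The factor Gata2 was lower at 0.933 and 0.579, and 0.966 and 0.455, the only one of 24 transcription factors. Aqp1 of 12 water and cyclic AMP genes, Tgfbr1 of 15 growth factor genes and Gclc of 8 NRF2 targets were lower, and Dbp of 9 circadian genes was higher. None of the 10 proximal tubule markers passed in the same direction, and 3 were opposite. No p53 target, claudin or cadherin, injury, heat shock, immediate early or KLF gene passed in the same direction in both, while Epcam, Hspa8 and Hsp90ab1 were opposite.

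The mitochondrial and ribosomal lists had medians above 0 without AAI and near 0 with AAI. For 11 mitochondrially encoded genes the medians were 0.46 and -0.01, and mt-Nd2 and mt-Co1 were higher in both. They were 0.25 and -0.08 for 49 nuclear genes of oxidative phosphorylation, of which Ndufa2, Uqcrq, Cox5a, Cox7c and Atp5e were higher in both. For 27 ribosomal protein genes they were 0.36 and -0.09, and Rps29 alone was higher in both. Without AAI, mt-Nd2, mt-Co1 and Rps29 differed by 0.70, 0.29 and 0.42, beside medians of 0.58, 0.28 and 0.33 over the other clusters. With AAI they differed by 0.21, 0.29 and 0.21, beside 0.08, 0.32 and 0.09. The named nuclear genes differed by 0.30 to 0.38 without AAI, beside 0.23 to 0.34, and by 0.27 to 0.48 with AAI, beside 0.00 to 0.18. None of the 20 genes highest of the 23 clusters in CNT in 4 of 4 mice passed in both comparisons in the same direction, and of the 58 CNT-higher genes Egfem1, Sgms2, Sdk1 and A4galt were lower and none higher. The letters CCNCNCCC, a pattern that KLF factors can bind, were in 64.3% of 42 promoters of the higher genes, 71.2% of 111 of the lower genes and 59.0% of all 13781 promoters of genes in the expression table. In the same order, the shares were 28.6%, 26.1% and 18.2% for GCCNNNGGC and 16.7%, 1.8% and 6.97% for AGATAA. These other patterns thus also departed from the share over all genes.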

How the data were processed

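Single nuclei of kidney cortex, kept in RNAlater, were sequenced on the 10x platform in 4 mice. Cell Ranger, Seurat and mm10 are named in the submitters' processing notes, and per the study's methods reads were counted on a pre-mRNA reference and nuclei were filtered and clustered. The deposited signal values were made by the authors as the mean normalized expression per cluster and mouse, on a linear scale with columns summing to nearly 10000. The function used and, for these RNA libraries, the treatment of doublets are not given in the sources used here, and the numbers of nuclei and the read depth that the study states were not used. Of 19632 rows, 23 date-like gene names were dropped.

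Differences were computed as log2(value + 1) with Python 3.11.15, numpy 2.4.6 and pandas 2.3.3, which understates changes of low genes. Between clusters, a gene needed a level of at least 0.5 on the larger side and a difference of at least 1 in 4 of 4 mice. Between conditions it needed 0.5 in each comparison and 0.2 in both. Scripts were tested on simulated data. Named were members of the gene lists, the first 15 genes per direction between clusters and the 15 highest in CNT by gap, and the first 10 between conditions. The members and lists were chosen with earlier results of these data known. The descriptions of gene span and of the cluster with the highest mean were added after values were seen. Alternatives were other pseudocounts, minimum levels, thresholds, centring and gene sets.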

Additional observations from a re-analysis of the deposited data

Results flagged for a closer look

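Genes of the lists on calcium, magnesium, sodium, potassium, WNK, water and acid-base transport, CNT markers and transcription factors are given here where 1 comparison moved by at least 0.2 on the log2 scale one way and its counterpart moved the other way. Each comparison is 1 mouse against 1 mouse, and the difference between the comparisons was not tested.

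With AAI, the values for the control genotype and then OE were -0.32 and 0.88 for Slc8a1, 0.39 and -0.64 for Klk1, and -0.36 and 0.46 for Kl. The water channel gene Aqp3 had 0.42 and -0.79, and the carbonic anhydrase gene Car12 had 0.41 and -0.34. Among transcription factors, Gata3 had -0.35 and 0.28, Tcf7l2 had -0.35 and 0.36, and Glis3 had -0.52 and 0.26.

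With genotype, the values without AAI and then with AAI were -0.71 and 0.49 for Slc8a1, -0.23 and 0.60 for Calb1, 0.75 and -0.28 for Klk1, and -0.25 and 0.56 for Kl. Of the genes of magnesium handling, Trpm6 had -0.77 and 0.23, the growth factor receptor Egfr had -0.23 and 0.24, and Umod, uromodulin, had 0.20 and -0.35. The cotransporter gene Slc12a3 had 0.46 and -0.31. Aqp3 had 0.67 and -0.54, and the phosphodiesterase gene Pde1c had -0.43 and 0.21. Car12 had 0.25 and -0.50. Tcf7l2 had -0.36 and 0.36, and Glis3 had -0.35 and 0.43. The AAI and genotype comparisons use the same 4 mice, so a gene that is opposite in both is 1 observation and not 2.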

How the results depend on the processing

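The counts followed the scale and the thresholds. With a pseudocount of 0.1 in place of 1, CNT was higher than the mean of the other clusters in 149 genes and lower in 355, higher than DCT in 95 and lower in 54, higher than CD_PC in 69 and lower in 92, and higher than DCT_CNT in 113 and lower in 277. With AAI 714 genes were then higher, 463 lower and 551 opposite, and with genotype 176, 463 and 650. At a threshold of 0.5 between clusters the counts in the same order were 197 and 374, 122 and 89, 86 and 119, and 140 and 300, and at 2 they were 6 and 8, 10 and 4, 3 and 3, and 0 and 10. At a threshold of 0.5 between conditions 23 genes were higher, 39 lower and 2 opposite with AAI, and 5, 4 and 6 with genotype. At 1 these were 2, 1 and 0, and 0, 1 and 0. With a minimum level of 2 the counts were 167, 62 and 40 of 860 compared genes with AAI and 20, 33 and 66 of 796 with genotype. At the minimum of 0.5, 3869 and 3769 genes were compared, so these smaller counts are not smaller shares throughout. Against the median of the other clusters in place of their mean, 126 genes were higher and 16 lower. Median centring gave 226 higher genes with AAI, and 108 higher and 73 lower with genotype. The cause of these shifts was not tested.

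Without 1 of the 4 mice, 59 to 67 genes were higher and 107 to 133 lower than the mean of the other clusters, 42 to 47 and 18 to 21 against DCT, 29 to 32 and 29 to 40 against CD_PC, and 40 to 48 and 111 to 128 against DCT_CNT, and 24 to 30 were highest of all clusters. Fewer mice had to pass, so these counts can only be equal or higher. Leaving out low-level filters, DCT_CNT or the mitochondrially encoded genes kept every count it was applied to within 1.5 times. So did leaving out genes highest in a proximal tubule cluster together with the mitochondrially encoded ones, an alternative chosen after seeing the data, which gave 55 higher and 170 lower genes with genotype. Columns were rescaled there and other genes could reach the minimum, so these counts are not of the same genes. Without the low-level filter, 410 genes were higher and 310 lower of 13411 with AAI, and 75 and 184 of 13310 with genotype. Far more genes were compared than at the minimum of 0.5, so these similar counts are smaller shares.

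The median of a list is given here as the mean of its 2 medians. With AAI and a pseudocount of 0.1 it was -0.73 for proximal tubule markers, -0.56 for thick ascending limb markers, -0.10 for sodium, 0.09 for water and cyclic AMP, 0.21 for growth factors, 0.56 for p53 targets, 0.29 for circadian and -0.15 for KLF genes. With a minimum of 2 it was -0.71 for proximal tubule markers, -0.24 for calcium, -0.18 for magnesium, -0.12 for sodium and 0.09 for potassium genes, the last from -0.05. With median centring it was -0.54 for proximal tubule markers, -0.10 for sodium, -0.10 for potassium, -0.00 for water and cyclic AMP, 0.11 for growth factors and 0.10 for circadian genes. With genotype and a pseudocount of 0.1 it was 0.12 for calcium, -0.28 for claudins and cadherins, -0.20 for NRF2 targets, -0.16 for circadian and -0.25 for KLF genes. With a minimum of 2 it was 0.04 for DCT markers, from -0.07, and 0.24 for calcium. With median centring it was 0.12 for calcium, 0.05 for magnesium, 0.04 for potassium, from -0.01, 0.03 for water and cyclic AMP, from -0.02, -0.18 for claudins and cadherins and -0.06 for circadian genes. Lists with fewer than 3 members left gave no value.

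No test was made, paired or not, since each group holds 1 mouse, and the 2 comparisons of each kind are given side by side. The table does not carry the counts or nuclei of each column, and differences in genes with low levels, such as those listed at 0 in a mouse, have no known counting error.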
